A study of Mus musculus with 8 samples.

Results

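Deep-layer projection neuron regulators are the genes that specify, or mark, the excitatory neurons of cortical layers V and VI. Those neurons send axons out of the cortex, to the spinal cord and brainstem from layer V and to the thalamus from layer VI. The 8 genes described are Fezf2, Tbr1, Sox5, Zfpm2, Tle4, Etv1, Crim1 and Pcp4, a list fixed by name and matched exactly to the gene symbols of the array annotation. All 8 were measured, out of 19938 genes with a probe set of 1 symbol, and no filter on dim genes was applied.

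RNA came from mouse neocortex at postnatal day 2. The tissue was cut by laser out of layers II to IV, above the layers for which these genes are mainly known. The 4 mutant pups carried 2 floxed alleles of Bcl11a (Bcl11a flox/flox;Emx1 IRESCre/+), and the 4 control pups carried 1 floxed and 1 intact allele with the same Cre (Bcl11a flox/+;Emx1 IRESCre/+). Cre driven from Emx1 acts in the lineage of cortical excitatory neurons and glia, so the controls are heterozygous for Bcl11a in that lineage, and interneurons, vessels and microglia keep their alleles. Each pup gave 1 array (Affymetrix Mouse Gene 1.0 ST), and values are log2 intensities. Control means of the members ran from 4.30 for Zfpm2, close to background, to 9.90 for Tbr1.

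Bcl11a encodes a zinc finger repressor of cortical projection neurons. The deep-layer fates are known to be kept apart by cross-repression: Fezf2 promotes the layer V subcerebral fate, Tbr1 promotes the layer VI corticothalamic fate and represses Fezf2 there, and Sox5 sets the order in which the deep-layer fates arise. Tbr1 has been described as a gene that Bcl11a represses directly. These regulators are known mainly from the deep layers, and the comparison asks whether they differ when both alleles of Bcl11a are floxed.

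The promoters of the 2 members that rose, Crim1 and Pcp4, and of Tbr1, the member described as a direct target, are shown as the 250 bases before and 50 bases after the gene start, from RefSeq on GRCm38.p6, plus strand. Capitals mark TGACCA, the core motif described for Bcl11a, or its reverse complement TGGTCA.
Crim1, chr17:78199998-78200297: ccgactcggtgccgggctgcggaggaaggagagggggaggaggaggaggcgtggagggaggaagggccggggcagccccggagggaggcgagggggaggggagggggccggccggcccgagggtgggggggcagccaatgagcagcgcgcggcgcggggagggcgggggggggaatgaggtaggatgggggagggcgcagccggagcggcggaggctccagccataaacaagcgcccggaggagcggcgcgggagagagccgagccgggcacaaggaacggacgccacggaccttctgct
Pcp4, chr16:96467356-96467655: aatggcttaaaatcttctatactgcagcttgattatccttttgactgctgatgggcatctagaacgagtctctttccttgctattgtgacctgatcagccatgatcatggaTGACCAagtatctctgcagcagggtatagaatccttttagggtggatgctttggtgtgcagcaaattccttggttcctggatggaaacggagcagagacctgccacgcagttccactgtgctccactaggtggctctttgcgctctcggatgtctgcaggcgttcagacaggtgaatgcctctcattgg
Tbr1, chr2:61804203-61804502: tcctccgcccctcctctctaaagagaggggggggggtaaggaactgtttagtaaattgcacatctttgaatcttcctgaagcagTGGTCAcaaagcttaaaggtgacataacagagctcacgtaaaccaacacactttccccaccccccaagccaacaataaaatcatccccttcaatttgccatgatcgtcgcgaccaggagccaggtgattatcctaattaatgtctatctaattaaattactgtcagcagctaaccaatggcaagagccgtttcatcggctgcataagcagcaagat

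The Pcp4 window held 1 match to the motif, starting at -139 relative to the gene start, the Tbr1 window held 1 on the opposite strand starting at -166, and the Crim1 window held none. Windows were found for 7 of the 8 members, 9 windows in all, and 2 of the 9 held the motif on either strand, against 13.6% of all 32851 windows of the same length. The T-box half-site TCACACC, or its reverse complement GGTGTGA, was in 0 of the 9 windows, against 3.98% of all windows. The Crim1 window had 76.0% G and C with 31 CG pairs, and the Pcp4 window 48.7% with 6 CG pairs, against medians of 52.7% and 7 over all windows. A match is a description of the letters and no evidence of binding.

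Array medians lay between 4.85 and 4.91 in mutants and between 4.83 and 4.90 in controls. Bcl11a read 8.56, 8.85, 8.37 and 8.75 in mutants 1 to 4, against 10.59, 10.52, 10.34 and 10.34 in controls 1 to 4, so its groups did not overlap (log2 difference -1.82, SE 0.10, adjusted p = 4.9e-07). The position of this probe set relative to the floxed exons was not analysed here. Of the upper-layer markers, Cux1 read 9.18 to 9.44 in mutants, against 9.65 to 9.73 in controls, and fell by 0.35 on the log2 scale (adjusted p = 0.0106, and 0.0676 without variance moderation). Rorb read 9.8 to 10.20 in mutants and 9.75 to 9.98 in controls and did not pass (adjusted p = 0.711). Control 1 stood apart from the other controls, at 16.6 on principal component 2 against -10.9 to -4.84. It had the lowest array weight of the 8 (0.556), so values without control 1 are given for each member that rose. Mutant 1 was the highest mutant on that component, at 7.75 against -4.94 to 3.91, and had the next lowest weight (0.794). Over all genes 827 of 19938 changed (4.15%), 470 higher (2.36%) and 357 lower (1.79%), which is 56.8% higher calls, or 45.7% after subtraction of array medians.

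Of the 8 members, Crim1 and Pcp4 rose, both about 2-fold, and none fell. The other 6, Fezf2, Tbr1, Sox5, Zfpm2, Tle4 and Etv1, did not pass the test, in which adjusted p-values are taken over all 19938 genes with a threshold of 0.05. The 2 members that rose stand beside a background of 2.36% of all genes. Their groups did not overlap, with mutants higher, as was so for 5.46% of all genes. All 8 differences were above 0, as were 57.5% over all genes, though those of Sox5 and Etv1 turned below 0 under other settings. The members' median difference was 0.18 on the log2 scale against 0.02 for all genes. Because the members were chosen with earlier results of these data known, these comparisons with all genes are no test of an excess. The array data come from tissue, so more cells that express a gene and more RNA per cell cannot be told apart.

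**Figure D1:**
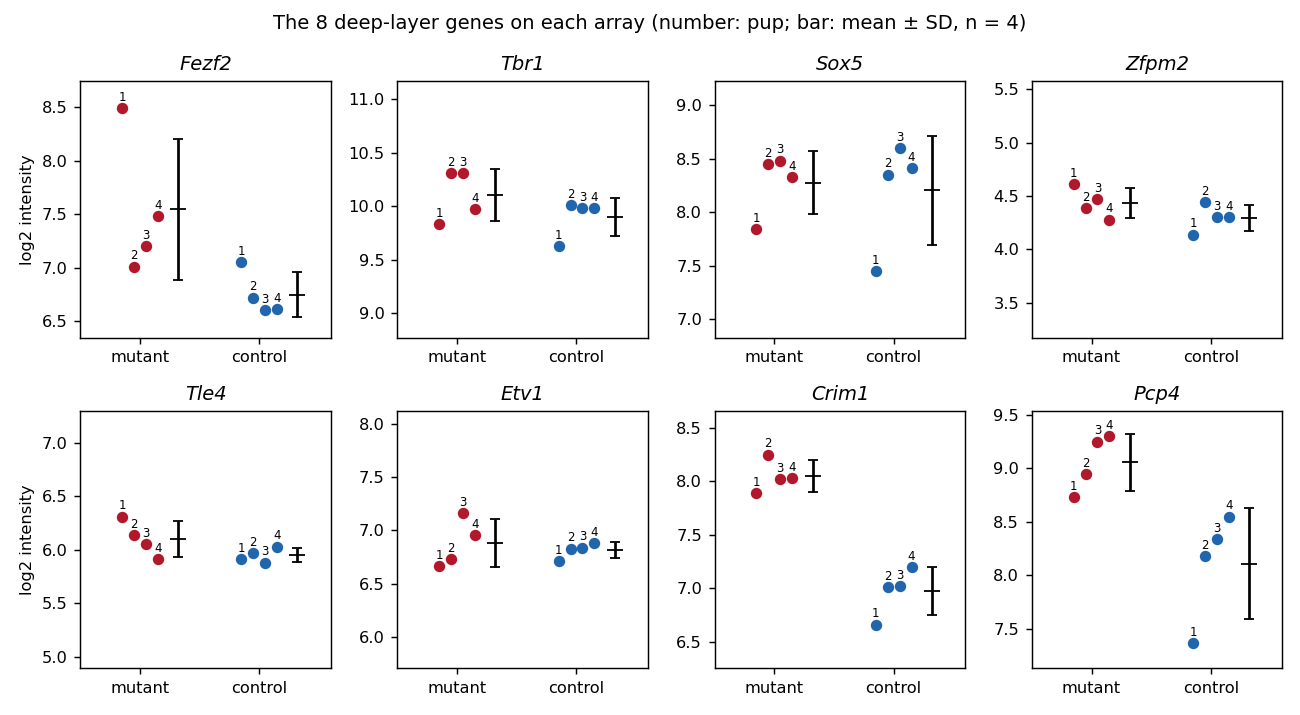
Log2 intensity of the 8 members on each array, mutants left of controls, with pup numbers above the points and bars for mean ± SD (n = 4). Every panel spans the same number of log2 units; only Crim1 and Pcp4 have mutant points that all lie above all control points.

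Crim1 is a transmembrane protein with cysteine-rich repeats that binds bone morphogenetic proteins and is expressed by corticospinal neurons. It read 7.89, 8.25, 8.02 and 8.03 in mutants 1 to 4, against 6.66, 7.01, 7.02 and 7.20 in controls 1 to 4. The lowest mutant lay above the highest control by more than the whole range of the mutants, 0.36. The means were 8.05 ± 0.15 in mutants and 6.97 ± 0.23 in controls (SD, n = 4), a 2.11-fold rise with a 95% interval of 1.79 to 2.48 (log2 difference 1.07, SE 0.11, adjusted p = 6.49e-05). The exact two-sided permutation p was 0.0286, the smallest that 4 arrays against 4 can give. Without control 1 the log2 difference was 0.97 (adjusted p = 2.63e-05), and Crim1 passed under each of the 18 alternative settings, with differences from 0.97 to 1.15.

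Pcp4 is a small calmodulin-binding protein used as a marker of deep-layer neurons. It read 8.73, 8.95, 9.25 and 9.30 in mutants 1 to 4, against 7.37, 8.18, 8.34 and 8.55 in controls 1 to 4. All mutants lay above all controls, with a narrow gap between mutant 1 and control 4. Control 1 was the lowest of all arrays and stretched the control range to 1.19, against 0.57 in mutants. The means were 9.06 ± 0.27 in mutants and 8.11 ± 0.52 in controls (SD, n = 4), a 1.93-fold rise with a 95% interval of 1.41 to 2.63 (log2 difference 0.95, SE 0.21, adjusted p = 0.0184, exact permutation p = 0.0286). Without control 1 the log2 difference was 0.70 (adjusted p = 0.00695). The call was lost without mutant 3 (adjusted p = 0.0663) or mutant 4 (0.0754), with an intensity trend and robust variances (0.146) and without variance moderation (0.25), with differences of 0.86 to 0.95.

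Fezf2, the zinc finger repressor that is required for layer V subcerebral neurons, had the third largest difference among the members but did not pass. It read 8.49, 7.01, 7.20 and 7.48 in mutants 1 to 4, against 7.05, 6.72, 6.60 and 6.61 in controls 1 to 4. Mutants 1, 3 and 4 lay above every control, while mutant 2 lay below control 1, so the groups overlapped. The means were 7.54 ± 0.66 in mutants and 6.75 ± 0.21 in controls (SD, n = 4), with a log2 difference of 0.80 (95% interval 0.27 to 1.32, adjusted p = 0.105, unadjusted p = 0.00596, exact permutation p = 0.0571). Mutant 1 carried much of that difference: without it the log2 difference was 0.48 (adjusted p = 0.0662). Bcl11b, a zinc finger gene that acts downstream of Fezf2 in layer V neurons, averaged 7.33 ± 0.20 in mutants and 7.29 ± 0.17 in controls (SD, n = 4, adjusted p = 0.919).

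**Figure D2:**
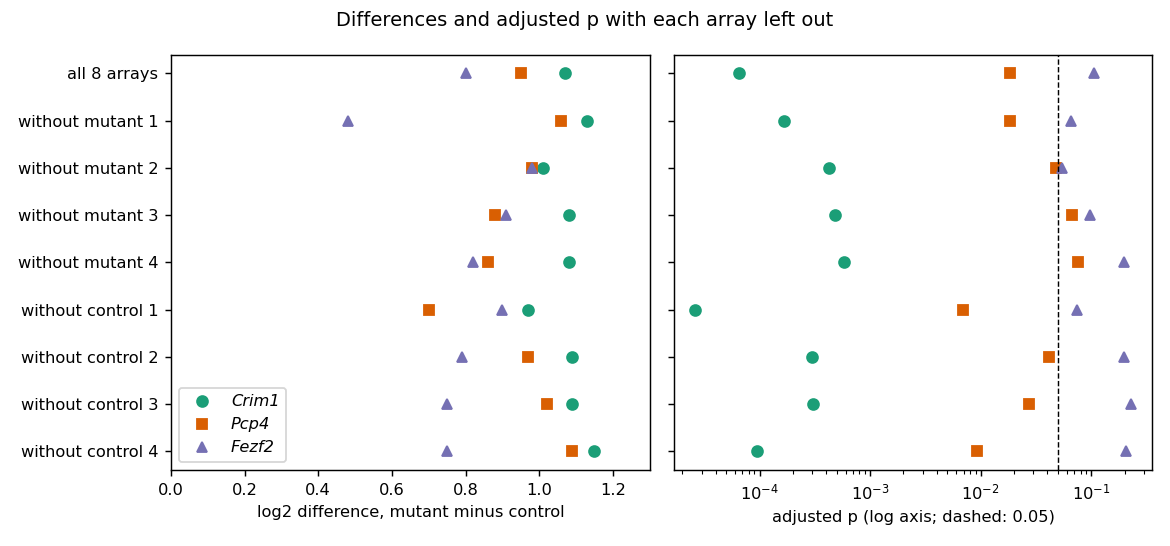
Log2 difference (left, mutant minus control) and adjusted p (right, log axis, dashed line at 0.05) of Crim1, Pcp4 and Fezf2 with all 8 arrays and with each array left out. Crim1 stays left of the line throughout, Pcp4 crosses it without mutant 3 or 4, and Fezf2 stays right of it.

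Tbr1, the T-box factor of layer VI and the subplate, read 9.83, 10.31, 10.31 and 9.97 in mutants 1 to 4, against 9.63, 10.01, 9.98 and 9.98 in controls 1 to 4. Mutants 2 and 3 lay above every control and control 1 lay below every mutant, while the rest overlapped. The means were 10.11 ± 0.24 in mutants and 9.90 ± 0.18 in controls (SD, n = 4), and the log2 difference of 0.21 had a 95% interval of -0.05 to 0.46 (adjusted p = 0.488). The upper end of that interval is a 1.38-fold increase. Of genes known as Tbr1 targets, Auts2 (8.69 ± 0.10 in mutants, 8.72 ± 0.17 in controls) and Grin2b (10.55 ± 0.13 in mutants, 10.71 ± 0.15 in controls; SD, n = 4) did not pass (adjusted p = 0.933 and 0.459). Reln, the secreted reelin glycoprotein, fell by 0.57 on the log2 scale (adjusted p = 0.0279), a call lost without mutant 2 or 3 or control 2, 3 or 4 (adjusted p from 0.0702 to 0.101). That call was also lost without variance moderation.

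Sox5, a SoxD family factor, read 7.84, 8.45, 8.48 and 8.33 in mutants 1 to 4, against 7.45, 8.35, 8.60 and 8.41 in controls 1 to 4. Pup 1 was the lowest in each genotype and the other readings interleaved. The difference of 0.07 (95% interval -0.38 to 0.53, adjusted p = 0.937) turned to -0.18 without control 1 (adjusted p = 0.61) and to -0.01 with array weights. The width of this interval leaves changes of up to 1.44-fold upward within it.

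Zfpm2, a cofactor of GATA factors that marks corticothalamic neurons, read 4.61, 4.39, 4.47 and 4.28 in mutants 1 to 4, against 4.14, 4.44, 4.30 and 4.30 in controls 1 to 4. These readings were close to background: 3 Y-linked genes read between 3.33 and 4.31 on the 3 arrays with high Xist, and 1 mutant and 3 controls lay within that range for Zfpm2. Background can differ between probe sets, so this sets no level for Zfpm2. Its difference was 0.14 (95% interval -0.04 to 0.33, adjusted p = 0.516).

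Tle4, a Groucho corepressor that Fezf2 recruits and that marks corticothalamic neurons, read 6.31, 6.14, 6.05 and 5.91 in mutants 1 to 4, against 5.91, 5.97, 5.88 and 6.03 in controls 1 to 4. Mutants 1, 2 and 3 lay above every control, and mutant 4 lay among the controls. The difference was 0.16 (95% interval -0.02 to 0.34, adjusted p = 0.452), and it was 0.09 without mutant 1 (adjusted p = 0.742).

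Etv1, an ETS factor of layer V neurons, was the member with 2 probe sets of 1 symbol, and they differed in direction. The brighter read 6.67, 6.73, 7.16 and 6.96 in mutants 1 to 4, against 6.71, 6.83, 6.84 and 6.88 in controls 1 to 4 (difference 0.06, 95% interval -0.15 to 0.28, adjusted p = 0.873). The dimmer read 6.67, 6.75, 6.67 and 6.82 in mutants, against 6.73, 6.84, 6.96 and 6.90 in controls (difference -0.13, SE 0.07, adjusted p = 0.46 with all probe sets fitted). Neither passed, and no direction is given for Etv1.

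Pup 1 of each genotype often held the extreme reading. Mutant 1 was the lowest mutant for 5 of the 8 members and control 1 the lowest control for 6, and the 5 that both share were Tbr1, Sox5, Etv1, Crim1 and Pcp4. How often these arrays were lowest over all genes was not counted, so the counts cannot be read as a trait of the members. Fezf2 went the other way, with its highest reading in mutant 1 among mutants (0.94 above their mean) and in control 1 among controls (0.31 above). Pcp4 and Sox5 lay 0.33 and 0.43 below the mutant mean in mutant 1, and 0.74 and 0.76 below the control mean in control 1. The labels do not say what a shared number means. Slc17a7, a glutamate transporter of cortical excitatory neurons, was also lowest in control 1 (6.98, against 8.0 to 8.38 in the other controls), while it read 7.54 to 8.36 in mutants. Its part in the members' values was not tested.

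**Figure D3:**
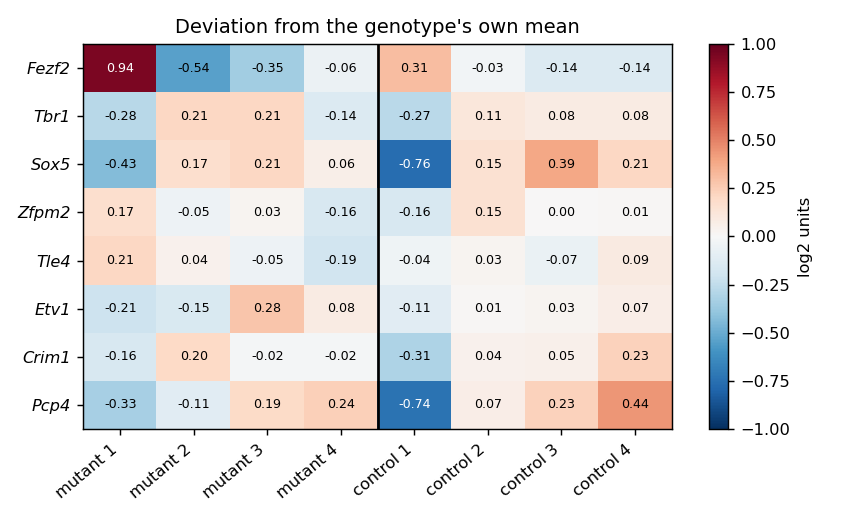
Each cell gives a member's log2 reading minus the mean of its own genotype, mutants left of the line and controls right of it. In mutant 1 and control 1 Fezf2 is above its genotype mean, while Tbr1, Sox5, Etv1, Crim1 and Pcp4 are below theirs.

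Paralogs were listed for every member other than Crim1. Of the 14 measured, Etv5 rose, Tle1 fell and 12 did not pass. Tle1, another Groucho corepressor, read 6.62, 6.73, 6.62 and 6.67 in mutants 1 to 4, against 7.45, 7.23, 7.19 and 7.12 in controls 1 to 4, with no overlap. It fell by 0.59 on the log2 scale, with a 95% interval of -0.75 to -0.42 (adjusted p = 4.58e-04). Etv5, an ETS factor of the same subfamily as Etv1, averaged 6.21 ± 0.07 in mutants and 5.80 ± 0.18 in controls (SD, n = 4), a rise of 0.41 (adjusted p = 0.0145), which was lost without mutant 4 (adjusted p = 0.0516). The Etv5 call was also lost without variance moderation.

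Each member other than Crim1 was also set against each of its paralogs, as the change of the within-array difference, in 14 exact two-sided permutation tests. Tle4 minus Tle1 was 0.74 higher in mutants and Pcp4 minus its paralog Pcp4l1 was 0.87 higher, each with an exact p of 0.0286 and an adjusted p of 0.2. Fezf2 minus Fezf1 was 0.83 higher (exact p = 0.0571, adjusted p = 0.266). An exact p cannot go below 0.0286 here, so a few pairs alone could not pass adjustment over 14, and these tests do not settle whether a member and its paralog differed in response. The 95% intervals of Tle4 (-0.02 to 0.34) and Tle1 (-0.75 to -0.42) did not overlap.

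**Figure D4:**
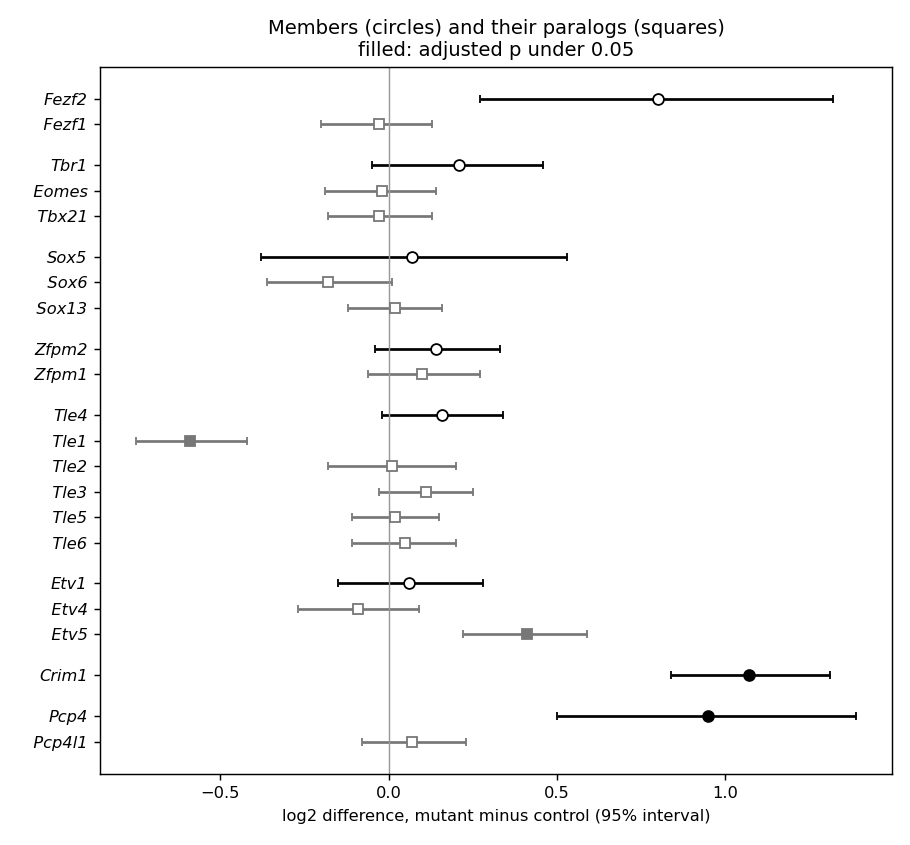
Log2 difference, mutant minus control, with its 95% interval for the 8 members (circles) and their 14 paralogs (squares), filled where the adjusted p is under 0.05. Crim1 and Pcp4 lie to the right among members, Tle1 to the left and Etv5 to the right among paralogs.

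Other deep-layer genes moved both ways. Of 16 further genes of layer V subcerebral neurons, 2 rose, 2 fell and 12 did not pass, with a median difference of 0.04. The list counts Slc17a7, a gene of cortical excitatory neurons in general. Ldb2, a LIM-domain-binding cofactor, averaged 10.71 ± 0.22 in mutants and 9.33 ± 0.70 in controls (difference 1.38), and Igfbp4, which binds insulin-like growth factors, 8.0 ± 0.16 in mutants and 7.02 ± 0.07 in controls (SD, n = 4). Cntn6, a contactin adhesion molecule, and Ephb1, an ephrin receptor, fell by 1.26 and 0.77 on the log2 scale. With the mean of its probe sets the Ephb1 difference was -0.40 (adjusted p = 0.00185), so the size of its fall depends on the probe set. Ldb2 lost its call with an intensity trend and robust variances (adjusted p = 0.116) and without variance moderation (0.185). Cntn6 lost its call without variance moderation (adjusted p = 0.084).

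Of 17 further genes of layer VI corticothalamic neurons, 1 rose, 4 fell and 12 did not pass, with a median difference of -0.08. Foxp2 and Ppp1r1b in this list are counted again among striatal genes, and Auts2 among partners and regulators of the members. Rprm, an inducer of cell cycle arrest used as a layer VI marker, averaged 8.97 ± 0.12 in mutants and 8.23 ± 0.29 in controls (SD, n = 4, difference 0.74). The neurotensin receptor gene Ntsr1, the adaptor gene Sla, the cadherin gene Cdh18 and the transcription factor gene Nfia fell by 0.90, 0.71, 0.64 and 0.39 on the log2 scale. Nfia lost its call without mutant 2 or 4 or control 3 (adjusted p from 0.059 to 0.0851). Without variance moderation Nfia and Rprm (adjusted p = 0.114 for Rprm) lost theirs. Of 12 subplate genes, the nuclear receptor gene Nr4a2 and the potassium channel gene Kcnt2 fell by 2.15 and 0.61, and 10 did not pass. Nr4a2, with 4.68 ± 0.16 in mutants and 6.83 ± 0.98 in controls (SD, n = 4), lost its call with an intensity trend and robust variances (adjusted p = 0.0705). Both Nr4a2 and Kcnt2 lost their calls without variance moderation.

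Of 23 upper-layer genes, 10 fell, 1 rose and 12 did not pass, with a median difference of -0.27. Cux2, a homeodomain factor, Mdga1 and Nectin3, adhesion molecules, and Pou3f1, a POU factor, fell by 1.29, 1.07, 0.70 and 0.54 on the log2 scale, and Lmo4, a LIM-only protein, rose by 1.10. Of 19 partners and regulators of the members, Bcl11a, Reln and the homeobox genes Emx1 and Emx2 fell and 15 did not pass. Emx1, which carries the Cre insertion in both groups, fell by 0.49 (adjusted p = 0.0233), a call lost without mutant 2, 3 or 4 or control 4 (adjusted p from 0.0587 to 0.0891), and Emx2 by 0.42. Emx1 and Pou3f1 also lost their calls without variance moderation. The genes of calmodulin that were measured, to which Pcp4 binds, did not pass, with differences of -0.03 for Calm2 and 0.07 for Calm3 (adjusted p = 0.914 and 0.729).

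**Figure D5:**
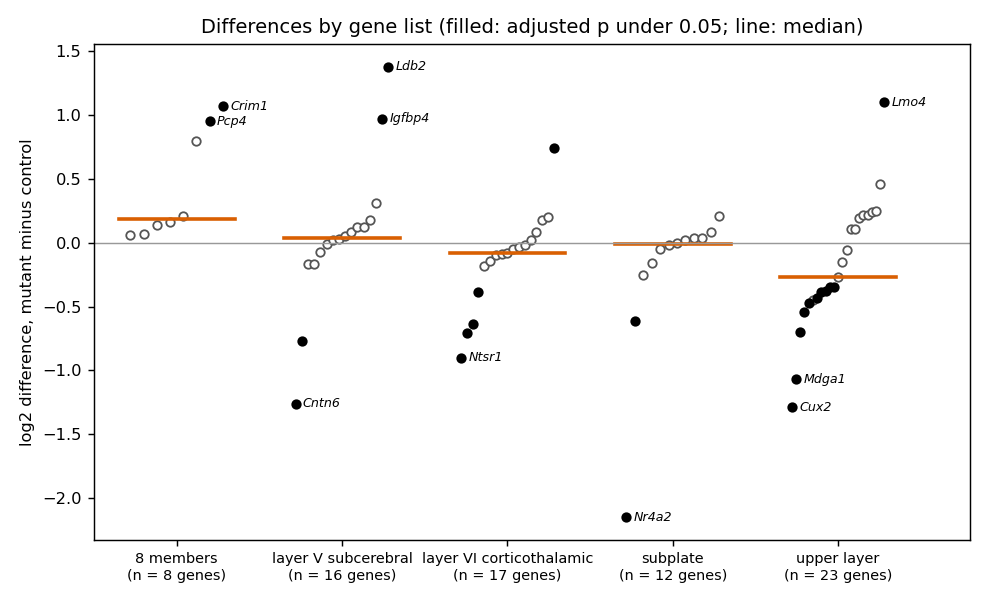
Log2 difference, mutant minus control, of each measured gene in the 8 members and in 4 other lists, filled where the adjusted p is under 0.05, with a line at each list's median. The members lie above 0 (Etv1 by its brighter probe set), the layer V, layer VI and subplate lists lie on both sides, and the upper-layer list has its median at -0.27.

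Several members are also expressed outside deep-layer neurons, Pcp4 in striatum among them, and the markers of other cells are given for that reason. Of 7 striatal genes, Meis2 and Rarb rose by 1.24 and 0.74, and the other 5 did not pass. The list's mean log2 level was 5.94 to 5.97 in mutants and 5.60 to 5.73 in controls. Its median difference was 0.05, so the mean level followed mainly Meis2 and Rarb. Meis2 averaged 11.33 ± 0.21 in mutants and 10.09 ± 0.20 in controls (SD, n = 4), the brightest of the list in both. Drd1 averaged 5.82 ± 0.08 in mutants and 5.91 ± 0.20 in controls (SD, n = 4). Drd2 averaged 4.17 ± 0.14 in mutants and 4.07 ± 0.15 in controls, and Isl1 4.22 ± 0.13 in mutants and 4.18 ± 0.05 in controls. The Drd2 and Isl1 means lay within the range of the Y-linked genes (3.33 to 4.31), which limits what their readings can show. Ppp1r1b and Foxp2 had differences of 0.02 and -0.02. Of 15 interneuron markers, Npy and Dlx1 fell by 1.63 and 0.46 and 13 did not pass, and the list's mean level was 6.96 to 6.99 in mutants and 7.07 to 7.26 in controls. Of the 15, 10 had an unadjusted limma p under 0.05, and 11 differences lay below 0 and 4 above (median -0.20). Of 10 astrocyte and radial glial genes, Vim and Glul fell by 0.36 and 0.33 (list mean 7.76 to 7.93 in mutants and 7.87 to 8.02 in controls), and of 7 genes of progenitors and new neurons, Insm1 rose by 0.82. Of 7 Cajal-Retzius genes, Reln fell, and of 7 thalamic genes, Slc17a6 fell by 0.51. Of 6 hippocampal genes, Wfs1 rose by 0.55 and Nr3c2 fell by 0.85. Calls were lost for Vim without mutant 2 or 4 or control 2 or 3 (adjusted p from 0.0726 to 0.0814). They were lost for Glul without any 1 array other than mutant 3 or control 3 (0.0504 to 0.114). The same held for Wfs1 without any 1 array other than mutant 1 or control 4 (0.054 to 0.106). With inferred sex as a term Glul (0.0642) and Wfs1 (0.0665) lost theirs, and Glul did so with quantile normalization (0.0574). Without variance moderation Slc17a6 (0.0537), Npy (0.0989), Nr3c2 (0.104), Vim (0.15), Glul (0.176) and Wfs1 (0.254) lost theirs. Of the 6 oligodendrocyte, 7 microglial, 7 vascular and 6 meningeal markers, 0 passed by limma (2, 1, 2 and 2 of them had an unadjusted p under 0.05). The part of these cells in the rise of Crim1 and Pcp4 was not tested.

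The genes whose profiles over the 8 arrays lay closest to those of the members that rose were found by the root mean square difference between profiles, each taken relative to its own control mean, among 9619 genes brighter than the median gene. For Crim1 they were Nt5dc2 (0.0829 log2 units), the proteoglycan gene Spock1 (0.108) and Hpcal1, a neuronal calcium sensor (0.112). Nt5dc2 read 8.76, 9.08, 8.87 and 8.79 in mutants 1 to 4, against 7.56, 7.78, 7.75 and 7.86 in controls 1 to 4. As for Crim1, mutant 2 was the highest mutant, and control 1 was the lowest and control 4 the highest control. For Pcp4 the closest were Shisal1 (0.144), the sialyltransferase gene St6galnac5 (0.154) and Cdh13, the T-cadherin gene (0.174). Shisal1 read 6.57, 6.62, 6.80 and 6.72 in mutants 1 to 4, against 5.03, 6.04, 6.07 and 6.15 in controls 1 to 4. Control 1 was far below the other controls here too, as it was for Pcp4. All 6 genes rose, which follows from their choice by closeness to Crim1 or Pcp4 and is no separate result. The likeness of their readings across arrays follows from the same choice. Shisal1 and Cdh13 lost their calls without mutant 2, 3 or 4 (adjusted p from 0.0598 to 0.0717 and from 0.055 to 0.0707) and St6galnac5 without mutant 4 (0.051). Over all 18 alternative settings Shisal1 passed in 12, Cdh13 in 13 and St6galnac5 in 16, with limma adjusted p up to 0.261, 0.247 and 0.212.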

How the data were processed

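The authors' deposited value table held 35556 probe sets on 8 arrays (4 mutant, 4 control). Per the labels, BRB-ArrayTools was used; how background and normalization were handled, how probes were summarised and which log base was used is not given in the sources used here, so the values as deposited (2.03 to 13.85) were taken as normalized log2 intensities. With another base the tests would be the same and fold changes would differ. The array annotation gave 1 symbol to 21789 probe sets, several to 1621 and none to 12146. For each gene the brightest 1-symbol probe set over the 8 arrays was kept, which left 19938 genes.

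Mutant was compared with control by limma 3.58.1 in R 4.3.3 (genotype alone, 6.91 prior degrees of freedom, two-sided, Benjamini-Hochberg over all genes, threshold 0.05; differences are mutant minus control). "Rose" and "fell" mean past that threshold. Exact tests used all 70 ways to choose 4 of 8 arrays. The number of arrays limits the precision (median SE 0.0766). On simulated arrays for the same 19938 genes, 57 of 67 changes of 0.5 and 66 of 67 changes of 1 were recovered, with 11 false calls. The noise there was independent between genes, no array stood apart, and the changed genes were drawn at random. It therefore does not give the power for the members, of which Fezf2, Sox5 and Pcp4 had SEs of 0.24, 0.21 and 0.21.

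The members and lists were chosen with earlier results of these data known. Named genes are the members, Bcl11a, up to 4 changed genes per list and direction, and the 3 nearest profiles of each changed member; Bcl11b, Auts2, Grin2b, Calm2, Calm3, Cux1, Rorb, Slc17a7, the paralogs that did not pass and the markers of other cells were named after their values were seen. Other settings tried were quantile or median scaling of arrays, filters on dim genes, another way to merge a gene's probe sets, weighting of arrays, other variance models and thresholds, inferred sex or replicate number as a term, and leaving out each array. The labels give no litter or batch, and each pup is 1 sample.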

Additional observations from a re-analysis of the deposited data

Results flagged for a closer look

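Of 72 groups of 4 arrays tested (36 named genes in each genotype), 8 had 1 array far from the other 3, where chance gives about 1 in 20. Control 1 was the array in 6 of the 8. It read 9.63 for Tbr1, against 9.98 to 10.01 in the other controls, and 8.29 for Ldb2, against 9.58 to 9.74. It read 8.50 for Spock1 (others 9.01 to 9.11), 6.81 for Hpcal1 (others 7.21 to 7.26), 5.03 for Shisal1 (others 6.04 to 6.15) and 5.88 for St6galnac5 (others 6.67 to 6.77). The last 4 were named because their profiles were close to those of Crim1 or Pcp4, so these readings are not independent of one another. Without control 1 the log2 differences were 0.97 for Crim1, 0.70 for Pcp4 and 0.12 for Tbr1.

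Mutant 2 read 10.17 for Spock1, against 10.04 to 10.05 in the other mutants. Control 3 read 10.21 for Sla, against 10.42 to 10.44 in the other controls.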

How the results depend on the processing

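With 4 pups a group, each array carries weight: leaving out 1 array gave 1 to 2 calls among the 8 members and 584 to 814 over all genes, against 2 and 827. Among the members 1 passed, Crim1, with an intensity trend and robust variances, without variance moderation and at an adjusted p under 0.01, and over all genes 249 passed without moderation and 447 at the stricter threshold. Differences below 0 came up for the members nearest 0: Sox5 gave -0.01 with array weights and -0.18 to 0.22 with 1 array left out, and Etv1 gave -0.03 with the mean of its probe sets, -0.13 with its dimmer probe set, a setting added after seeing the data, and -0.03 to 0.13 with 1 array left out. Of the 30 named genes past the threshold, 16 passed under every alternative and 14 lost the call without moderation. The 14 were Pcp4, Ldb2, Cntn6, Rprm, Nfia, Nr4a2, Kcnt2, Pou3f1, Etv5, Reln, Emx1, Shisal1, St6galnac5 and Cdh13. Without moderation the counts were 2 of 4 calls for layer V, 3 of 5 for layer VI, 0 of 2 for subplate and 5 of 11 for upper-layer genes. Zfpm2 was not tested without the dimmest 50% of genes. With the replicate block, 3 members passed, Fezf2 among them (adjusted p = 0.00872), and 987 genes in all. The labels do not say that the numbers pair pups, and deviations of same-numbered arrays from their group means correlated by 0.0558 to 0.295 across genes, not all above 0.1; 6 of the 8 arrays matched their own number best in the other genotype, which is a hint from the data and not the design. Readings near background limit what can be said of Zfpm2, of the paralogs Pcp4l1, Eomes and Tbx21, and of the striatal genes Drd2 and Isl1. The causes of these changes were not tested.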
